A study of Bos taurus with 18 samples.

Results

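The genes described here are 10 members of the Notch pathway, chosen by symbol: the receptors NOTCH1, NOTCH2 and NOTCH3, the ligands JAG1, JAG2 and DLL1, and the target genes HES1, HEY1, HEY2 and HEYL. All 10 are among the 16989 genes of the count files. Their RNA was measured in bovine bone marrow derived mesenchymal stem cells (MSCs) of a single juvenile donor, as 17 clonal populations (clones A to Q), each grown from 1 cell, and 1 heterogeneous population of mixed cells from that donor. All 18 were at passage 1 in monolayer in basal medium with serum, and none had received chondrogenic induction. Each population was sequenced once, so a single clone has no replicate error, and the spread given below is that between clones.

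Notch signalling passes between cells that touch. A membrane-bound ligand of the Jagged or Delta-like family on one cell binds a Notch receptor on its neighbour, the receptor is cut by ADAM proteases and then by γ-secretase, and the freed intracellular part enters the nucleus and joins the DNA-binding protein RBPJ. HES and HEY genes, which encode basic helix-loop-helix repressors, are the classical targets. In skeletal progenitors the pathway is known for holding back differentiation, and in vessel walls JAG1, NOTCH3 and the HEY genes are known for their part in smooth muscle cells and pericytes. Transcript counts measure neither receptor cleavage nor protein.

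Reads assigned to genes numbered 11484812 to 18458157 per clone, with a median of 14193790, and 16092501 for the heterogeneous population. Levels are given as CPM, the usual read count scaled for library size, here with TMM factors (0.892 to 1.16). They are compared between libraries within a gene and not between genes, since transcript lengths were not used. The stromal character of the cultures was checked with 12 MSC genes, of which all 12 had reads. Their summed level ran from 33726 CPM in clone N to 171547 CPM in clone F, with 172659 CPM in the heterogeneous population, and most of that sum came from COL1A1 and COL1A2. VCAM1 of this list was at 0 to 47 reads. Of 12 endothelial genes 9 had reads, with CDH5, ESAM and ROBO4 at 0 and a sum of 19.2 to 76.8 CPM in the clones, most of it from the transcription factor ERG (13.6 to 71.0 CPM). The 15 macrophage genes came to 4.76 to 34.0 CPM in the clones and 234.8 CPM in the heterogeneous population. Clones C and O were alike to an unusual degree. Over 10344 other genes their centred log2 levels had r = 0.944, and their counts differed by a mean χ² of 5.08 per gene, against 23.1 for the next closest pair (E and F). They differed by more than counting error alone gives and were kept as 2 clones, and values with their reads summed as 1 are given where they change a call on a gene or pair named here.

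All 3 receptors were detected in every library. NOTCH2 ran from 1323 CPM in clone I through a median of 1910 CPM to 2311 CPM in clone M, a 1.75-fold range. Its SD of 0.26 log2 units (n = 17 clones) was below the 0.30 of the median gene tested, so NOTCH2 was the steadiest of the members. NOTCH1 was far less even. It ran from 63.0 CPM in clone M through a median of 147.1 CPM to 316.4 CPM in clone G, a 5.02-fold range. Clones Q, P and N came next above M (63.8, 87.7 and 89.2 CPM). Clones L, O and C came next below G, at 230.3, 224.9 and 217.5 CPM. Its SD of 0.65 was larger than that of 87.2% of the 10351 genes tested. NOTCH3, the receptor of mural cells, was counted at only 18 to 174 reads per clone. It ran from 1.08 CPM in clone O through a median of 2.77 CPM to 9.86 CPM in clone P (SD 0.69, of which counting error would give 0.24). Clone P stood at 9.86 CPM against 4.74 CPM in the next clone, K, and the exact 95% Poisson intervals of P (8.45 to 11.4 CPM) and K (3.66 to 6.03 CPM), which cover counting error only, did not overlap.

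Of the ligands, JAG1 was counted at 216 to 1376 reads per clone. It ran from 14.5 CPM in clone Q through a median of 49.6 CPM to 98.8 CPM in clone K, a 6.79-fold range (SD 0.72). Clones Q, P and O were the lowest and clones K, A and F the highest. DLL1 was low, at 20 to 101 reads per clone, and ran from 1.21 CPM in clone M through a median of 3.33 CPM to 7.02 CPM in clone G (SD 0.65, of which counting error would give 0.22). Clones C and O followed G in DLL1, and clones M, E and A were the lowest. JAG2 had 0 reads in all 18 libraries, which allows up to 0.170 to 0.273 CPM per library if 3 reads are taken as the limit. PGK1, a glycolytic enzyme of every cell, also had 0 reads in all libraries, so a 0 in these files does not show that a gene was silent.

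HEY2 differed more from clone to clone than any other member tested. It ran from 1.51 CPM in clone N and 1.55 CPM in clone Q, at 23 reads each, through a median of 12.02 CPM to 46.1 CPM in clone K, at 642 reads. That is a 30.6-fold range, and its SD of 1.43 exceeded that of 99.1% of genes tested. The order fell into a low stretch of 8 clones (N, Q, L, P, O, C, H and G), up to 7.09 CPM, and a higher stretch from clone I at 12.02 CPM upwards. HES1 ran from 5.79 CPM in clone Q through a median of 21.5 CPM to 35.7 CPM in clone L (SD 0.67, 6.17-fold). Clone Q lay far below the next clones, M and P, both at 12.8 CPM. HEY1 and HEYL were at the edge of detection. HEY1 had 0 to 8 reads per library (45 in all), with its highest counts in clones O (8) and C (7) and 0 in clones B, H and Q. HEYL had 0 to 11 reads (46 in all), with 11 in clone K and 0 in clones A, C, F and N. Thus 7 of the 10 members passed the filter on low counts in the clones, and HEY1, HEYL and JAG2 did not.

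**Figure D1:**
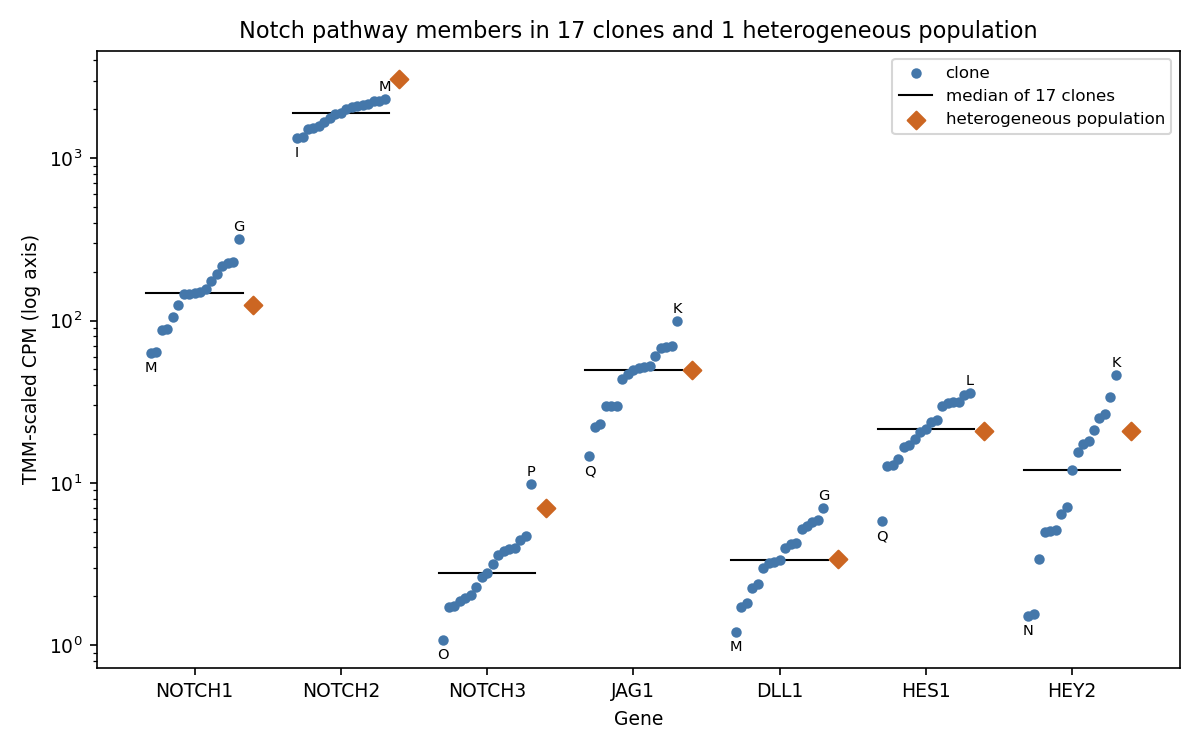
Level of the 7 members that passed the count filter, in TMM-scaled CPM on a log axis, with 1 point per clone in rising order, a line at the median of 17 clones and a diamond for the heterogeneous population. HEY2 has the widest range (1.51 to 46.1 CPM) and NOTCH2 the narrowest (1323 to 2311 CPM), and only in NOTCH2 does the diamond (3084 CPM) lie above every clone.

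No clone was high or low in every member. Clone Q was lowest in JAG1 and HES1 and second lowest in NOTCH1 and HEY2, yet its DLL1 (5.18 CPM) and NOTCH2 (1772 CPM) were within the upper and middle parts of the range. Clone G was highest in NOTCH1 and DLL1 and second highest in HES1, while its NOTCH2 (1356 CPM) was second lowest. Clone K was highest in both JAG1 and HEY2, and also had the most HEYL reads. Clone M was lowest in NOTCH1 and DLL1 and highest in NOTCH2, with HEY2 at 25.2 CPM, above the median.

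**Figure D2:**
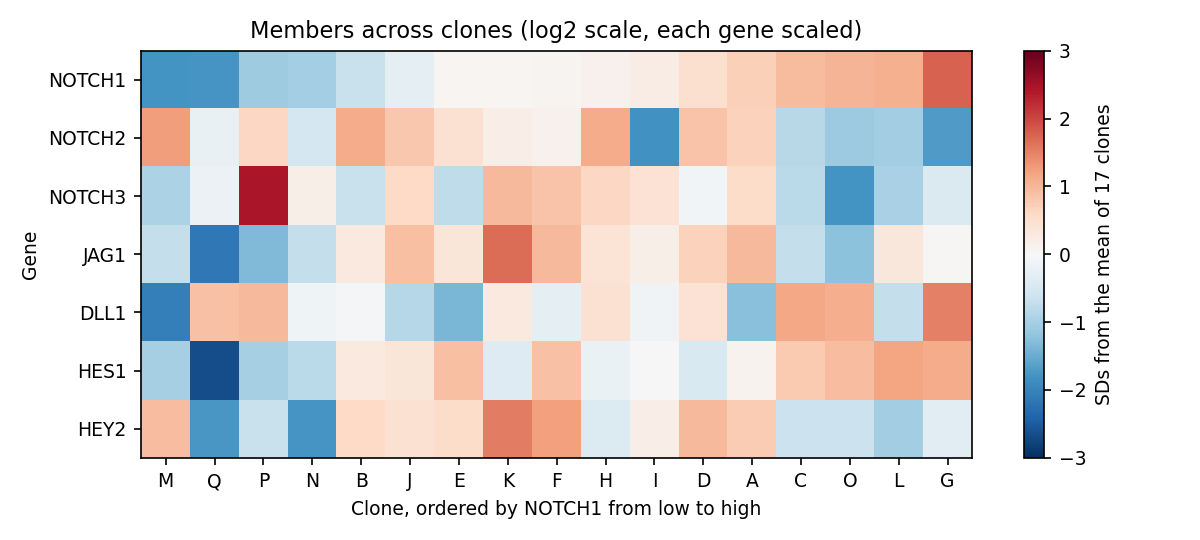
Members across the 17 clones, ordered by NOTCH1 from low (left) to high (right), each gene shown as SDs from its mean on the log2 scale. HES1 rises along the NOTCH1 order (5.79 CPM in clone Q, 35.7 CPM in clone L), whereas HEY2 follows the row of JAG1, both being highest in clone K.

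Since receptors, ligands and targets were measured in the same libraries, the next comparison asked which members moved together from clone to clone. All 21 pairs of the 7 members were correlated over the 17 clones on the log2(CPM + 0.25) scale. Of these, 13 had a positive and 8 a negative r, and 3 had a permutation p under 0.05, namely HES1 with NOTCH1, HEY2 with JAG1, and NOTCH2 with NOTCH1. A slope of every tested gene on each receptor and ligand was then fitted with edgeR's quasi-likelihood test, adjusted over all genes, so that the members can be read against the rest of the transcriptome.

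HES1 was higher in clones with more NOTCH1. The 4 clones lowest in HES1 (Q, M, P and N, 5.79 to 14.1 CPM) were also the 4 lowest in NOTCH1 (63.0 to 89.2 CPM), and the clones with the most HES1, L and G, were the top 2 in NOTCH1. Pearson r was 0.805 (n = 17, permutation p = 0.00012) and Spearman rho 0.743 (permutation p = 0.0011). Without clones M and Q, the farthest from the median NOTCH1, r was 0.702 (permutation p = 0.0036). The fitted slope was 0.80 log2 units of HES1 per log2 unit of NOTCH1 (SE 0.16, adjusted p = 0.0027 in edgeR's quasi-likelihood test), and leaving out single clones gave slopes from 0.65 to 0.85, all past the threshold. NOTCH1 levels were shared with a large part of the transcriptome, however. The same fit called 2697 of 10350 genes, or 26.1%, so that 1 called member of 6 is a share below the background, and HES1 ranked 295 by p. At an unadjusted p under 0.05 the counts were 2 of 6 members (HES1 and NOTCH2) and 39% of genes. The called genes were split into 13.8% upwards, a share near the 1 of 6 members called upwards, and 12.3% downwards. The number of reads on genes moved with NOTCH1 too (r = -0.515, permutation p = 0.0339, rho = -0.503, p = 0.0418, adjusted p = 0.142 over the 42 relations of members with depth, TMM factor and marker sums, r = -0.370 without clones M and D), and its part in the result was not tested. HES1 itself had r = -0.135 with depth (permutation p = 0.600, adjusted p = 0.825, with rho = -0.135, p = 0.601, and r = -0.0975 leaving out clones M and D). The summed macrophage genes, low in every clone, also moved with NOTCH1 (r = 0.548, permutation p = 0.0226, rho = 0.534, p = 0.0293, adjusted p = 0.119, r = 0.511 without clones A and L), and HES1 had r = 0.452 with the same sum (permutation p = 0.0717, rho = 0.615, p = 0.0102, adjusted p = 0.251, and r = 0.499 leaving out clones A and L). LAPTM5 (1.07 to 28.8 CPM in the clones) had the highest median of these genes, and the part of this sum was not tested.

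HEY2 did not follow NOTCH1 (slope -0.09, SE 0.59, adjusted p = 0.922 by the same edgeR test) but JAG1. The clones highest in JAG1, K, A and F, had 46.1, 21.0 and 34.0 CPM of HEY2, and the clones lowest in JAG1, Q, P and O, had 1.55, 4.99 and 5.04 CPM. Among the exceptions were clone M, with HEY2 at 25.2 CPM and JAG1 at 29.9 CPM, and clone N, with HEY2 at 1.51 CPM beside the same JAG1 level of 29.8 CPM. Clones L and H had JAG1 above the median (50.7 and 52.4 CPM) with HEY2 at only 3.38 and 6.46 CPM. Pearson r was 0.749 (n = 17, permutation p = 0.00052), rho was 0.738 (permutation p = 0.00102), and r was 0.657 (permutation p = 0.00815) without clones Q and P. HEY2 rose by 1.40 log2 units per log2 unit of JAG1 (SE 0.33, adjusted p = 0.0322 in edgeR's quasi-likelihood test), the only 1 of 6 members called, where the background was 2.78% (288 of 10350 genes, 1.7% upwards and 1.08% downwards). At an unadjusted p under 0.05 the same 1 member stood beside 19.1% of genes. The adjusted p rested on single clones. It was above 0.05 without clone C, F, K, O, P or Q (0.0565, 0.066, 0.0808, 0.0645, 0.0834 and 0.0904), and 0.0592 with clones C and O summed, while the slope stayed between 1.26 and 1.70.

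**Figure D3:**
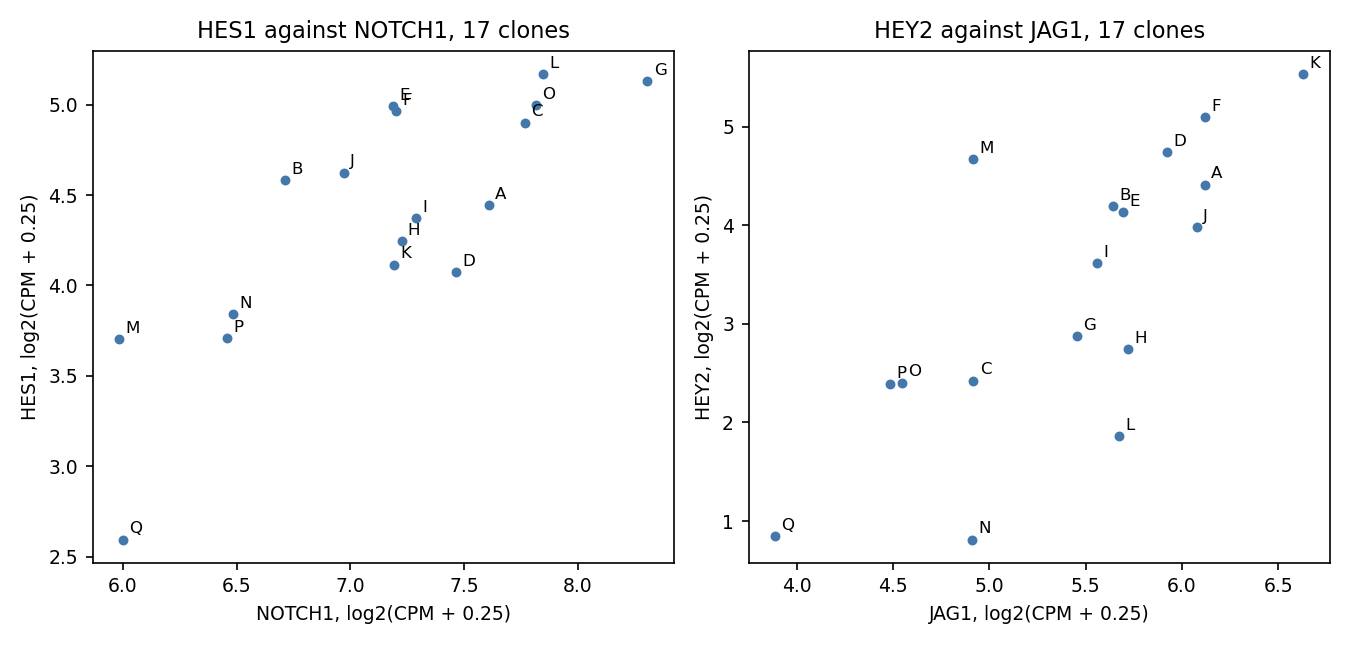
HES1 against NOTCH1 (left) and HEY2 against JAG1 (right), 1 lettered point per clone, both axes log2(CPM + 0.25). On the left clone Q lies lowest (HES1 5.79 CPM) and clones L and G highest, and on the right clones M and N share a JAG1 level (29.9 and 29.8 CPM) while HEY2 is at 25.2 and 1.51 CPM.

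The other pairings were weaker. JAG1 and HES1 had r = 0.483 (permutation p = 0.0502, rho = 0.262, p = 0.308), which was -0.0201 without clones Q and P, so the relation rested on those clones. With clones C and O summed, r between JAG1 and HES1 was 0.575 (permutation p = 0.0208). NOTCH1 and JAG1 had r = 0.411 (n = 17, permutation p = 0.0995, rho = 0.267, p = 0.297), which was 0.510 (p = 0.0424) with clones C and O summed and 0.0867 without clones M and Q. The slope of HES1 on JAG1 was 0.36 (SE 0.23, adjusted p = 0.408 by edgeR). HES1 and HEY2, both targets, had r = 0.258 (permutation p = 0.323, rho = 0.00490, p = 0.989, r = 0.0257 without clones Q and M). The receptors NOTCH1 and NOTCH2 ran in opposite directions, with r = -0.515 (n = 17, permutation p = 0.0350, rho = -0.525, p = 0.0321, r = -0.546 without clones M and Q), but the slope of NOTCH2 on NOTCH1 did not pass (-0.21, SE 0.10, adjusted p = 0.121 by edgeR's test), and the permutation p of r exceeded 0.05 without clone B, C, G, L, M, O or P (r = -0.395, p = 0.130 without G) and with clones C and O summed (r = -0.483, p = 0.0590). NOTCH2 moved with the TMM factor (r = -0.684, permutation p = 0.0024, rho = -0.677, p = 0.0035, adjusted p = 0.0168, r = -0.655 when clones L and A were left out). It had r = 0.574 with the summed MSC genes (permutation p = 0.0149, rho = 0.576, p = 0.0169, adjusted p = 0.0896, r = 0.660 when clones N and F were left out). The part of either in the relation with NOTCH1 was not tested. Slopes on NOTCH2 called 0 of 6 members, against a background of 14.2% (5.24% upwards and 8.95% downwards), and 1 (NOTCH1) had an unadjusted p under 0.05, against 30.5% of genes. limma also called 0. Slopes on NOTCH3 and on DLL1, both counted at few reads, called 0 of 6 members and 0% of all genes by edgeR and by limma. At an unadjusted p under 0.05 they gave 0 members each, against 13.5% and 15.5% of genes. DLL1 and JAG1, the detected ligands, had r = -0.361 (permutation p = 0.155, rho = -0.429, p = 0.0867, r = -0.196 without clones Q and P). HEY1 was too low for the test. In a fit with no filter its slope on NOTCH1 was 1.26 (adjusted p = 0.0475 by edgeR), a value that rests on 0 to 8 reads per clone.

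Some smooth muscle genes rose with JAG1. Of 9 mural genes (smooth muscle and pericyte markers), 7 were tested and 4 had a called slope on JAG1, all upwards, with a median slope of 0.87 over the 7 against -0.02 over all genes and a background of 1.7% called higher. These were ACTA2, smooth muscle α-actin (slope 1.45, SE 0.22, adjusted p = 0.00524 by edgeR), MYLK, myosin light chain kinase (1.32, SE 0.30, adjusted p = 0.0288), CNN1, calponin (0.87, SE 0.17, adjusted p = 0.0160), and TAGLN, transgelin (0.68, SE 0.12, adjusted p = 0.0124). The MYLK call was lost without clone F, K, O, P or Q and with clones C and O summed (adjusted p = 0.0528 by edgeR), and the CNN1 call without clone Q. The pericyte gene CSPG4 had a slope of -0.07 (SE 0.17, adjusted p = 0.858 by edgeR), MYH11 was at 0.41 (SE 0.34, adjusted p = 0.539), RGS5 had 4 reads in all libraries together and LMOD1 had 0. The summed mural level ran from 2194 CPM in clone Q to 11574 CPM in clone F, where ACTA2 (5922 CPM) and TAGLN (4168 CPM) made up most of it. It had r = 0.843 with JAG1 (permutation p = 6e-05, rho = 0.799, p = 0.00022, adjusted p = 0.00084 over the 42 relations, r = 0.781 without clones Q and N). With HEY2 it had r = 0.859 (permutation p = 2e-05, rho = 0.838, p = 9e-05, adjusted p = 0.00063, r = 0.759 without clones Q and N).

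HEY2 also moved with other measures. Against the summed MSC genes r was 0.835 and rho 0.824 (permutation p = 3e-05 and 9e-05, adjusted p = 0.00063), and r was 0.763 when clones N and F were left out. Against the summed endothelial genes, mostly ERG, r was -0.691 and rho -0.730 (permutation p = 0.00225 and 0.00142, adjusted p = 0.0168), and r was -0.608 when clones F and D were left out. Against the TMM factor r was -0.717 and rho -0.713 (permutation p = 0.00154 and 0.00188, adjusted p = 0.0162), and r was -0.693 when clones L and A were left out. The part of any of these in the JAG1 relation was not tested. With CPM by library total, which leaves out the TMM factor, r between JAG1 and HEY2 was 0.683 (permutation p = 0.00222). In bulk RNA, fewer expressing cells and less RNA per cell cannot be told apart.

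**Figure D4:**
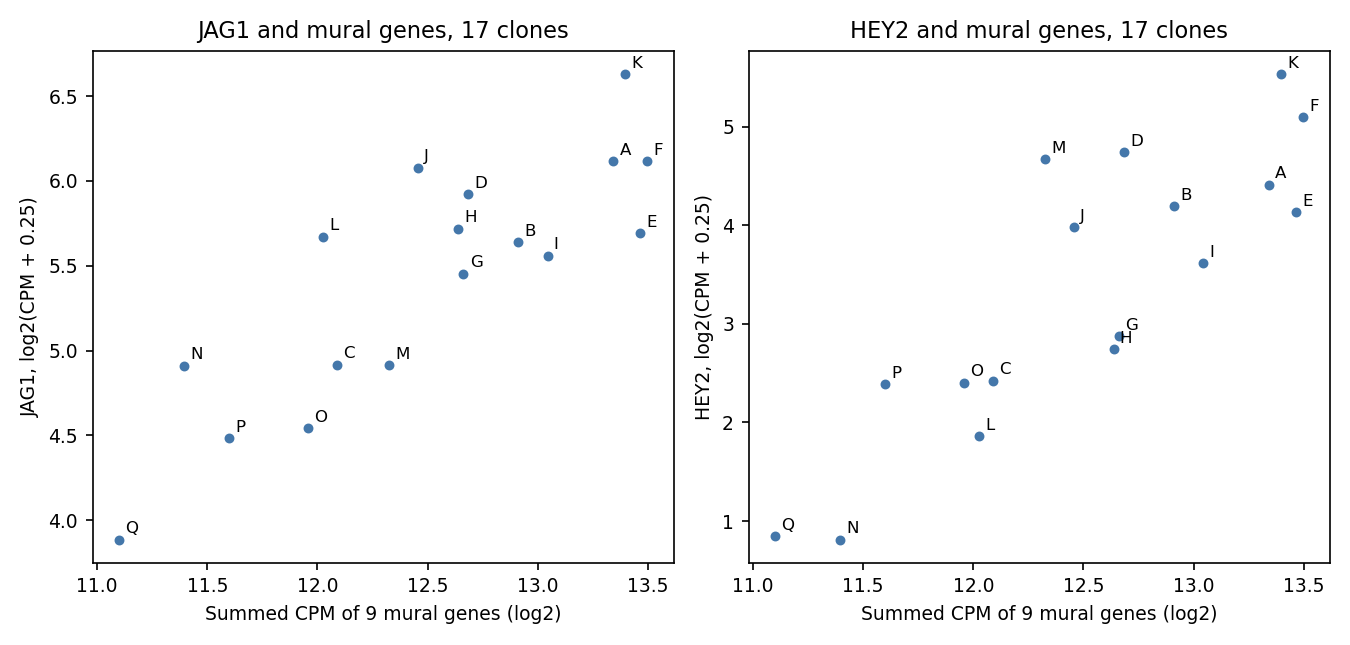
JAG1 (left) and HEY2 (right) against the summed CPM of 9 mural genes (log2), 1 lettered point per clone, 17 clones. Both genes are highest in clone K and are low in clone Q, where the mural sum is lowest (2194 CPM).

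Other parts of the pathway were read from fixed lists. Of the machinery that cuts the receptor, ADAM10, ADAM17, NCSTN, APH1A and PSENEN had 507 or more reads in every library. The counts on NOTCH1 stand against 26.1% of all genes called (13.8% upwards and 12.3% downwards), and those on NOTCH2 against 14.2% (5.24% upwards). Against NOTCH1, 2 of 9 cleavage genes were called, both upwards. That share is below that of all genes called and above that of genes called upwards. At an unadjusted p under 0.05 it was 5 of 9, against 39% of genes. The called genes were FURIN, the convertase that matures Notch receptors (slope 0.75, SE 0.22, adjusted p = 0.0176 by edgeR), and the γ-secretase subunit APH1B (0.42, SE 0.13, adjusted p = 0.0311, a call lost without clone G, N, O or P and with no filter on low counts). Of 5 glycosyltransferases 1 was called, upwards, again below the share of all genes called and above that called upwards, with 2 at an unadjusted p under 0.05. It was LFNG or lunatic fringe, which adds sugars to Notch and changes its response to ligands (0.53, SE 0.16, adjusted p = 0.0250 by the same test, lost without clone L, M or Q). Among 8 tested genes of ligand endocytosis and receptor turnover 3 were called, all downwards. That share is above that of all genes called and that called downwards. At an unadjusted p under 0.05 it was 5 of 8, against the same 39%. The called genes were the ligand-activating ubiquitin ligase MIB2 (slope -0.44, SE 0.10, adjusted p = 0.0067 by edgeR), DTX2 and DTX3. The DTX2 call was lost without clone C, G, L, P or Q and the DTX3 call without clone G or Q. MIB2 and DTX3 were called upwards with NOTCH2 (1.12, SE 0.26, adjusted p = 0.00833, and 0.80, SE 0.23, adjusted p = 0.0268, the latter lost without clone G, L or O), as were NCSTN (0.98, SE 0.25, adjusted p = 0.0141 by edgeR, lost without clone G) and RFNG (0.70, SE 0.19, adjusted p = 0.0231, lost without clone G, L or O and with clones C and O summed, at 0.0509). These were 2 of 8 turnover, 1 of 9 cleavage and 1 of 5 glycosylation genes tested, with 0 of 11 nuclear genes and 0 of 3 other targets. At an unadjusted p under 0.05 the counts were 2, 6, 1, 2 and 1, in that order, against 30.5% of genes. On JAG1, with 2.78% of all genes called, 0 of 5 glycosylation, 9 cleavage, 8 turnover and 11 nuclear genes were called by edgeR, with 2, 2, 3 and 3 at an unadjusted p under 0.05. Of the 12 MSC genes 11 were tested, and 0 were called on JAG1. On NOTCH1 1 was called, CD44 (slope 0.37, SE 0.13, adjusted p = 0.0485 by edgeR), lost without any 1 of 13 clones. On NOTCH2 2 were called by edgeR, COL1A2 (1.53, SE 0.45, adjusted p = 0.0321) and PRRX1 (1.08, SE 0.33, adjusted p = 0.0370). These were lost without any 1 of 6 clones (COL1A2) or 8 clones (PRRX1), and both with clones C and O summed.

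RBPJ, the DNA-binding partner of cleaved Notch, was called downwards against NOTCH1 (slope -0.63, SE 0.21, adjusted p = 0.0346 by edgeR). Its levels were uneven: 114.9 CPM in clone N, 69.7 CPM in clone Q and 66.4 CPM in clone P, against 19.8 to 39.7 CPM in the other 14 clones. Clones N, P and Q were among the 4 lowest in NOTCH1 and in HES1 and among the 4 lowest in HEY2. The RBPJ call was lost without any 1 of clones C, G, N, O, P or Q (adjusted p up to 0.102) with clones C and O summed (0.0528), and with limma (0.101). SNW1, a cofactor in the same complex, also fell (slope -0.23, SE 0.05, adjusted p = 0.00405 by edgeR). Of the other 9 tested nuclear genes 0 were called, with 1 at an unadjusted p under 0.05. The 2 of 11 called, both downwards, are a share below the 26.1% of all genes called on NOTCH1 and above the 12.3% called downwards. At an unadjusted p under 0.05 it was 3 of 11, against 39% of genes. Among further targets, HES2, BHLHE40 and BHLHE41 had reads in every library and were tested, and HES4 and HES5 had 8 and 1 reads in all. Of those 3 tested, 0 were called on NOTCH1, against 26.1% of all genes. At an unadjusted p under 0.05 there were 0, against 39%. NOTCH4, DLK1, DTX1, MAML1 and TLE2 were at 0 reads in every library, and DLL4, the endothelial ligand, had 10 reads in all. NEURL1, EP300 and NRARP were not matched by symbol.

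The heterogeneous population was then set against the clones, the only groups that the labels define. It held more NOTCH2 than any clone, with 47000 reads and 3084 CPM against 1323 to 2311 CPM (log2 difference 0.72, SE 0.26 and, in edgeR's quasi-likelihood test, p = 0.0123 before and 0.439 after adjustment). NOTCH3, at 7.02 CPM, was above 16 of 17 clones and below clone P (log2 difference 1.10, SE 0.67, adjusted p = 0.699 by the same test). The other members lay within the range of the clones. NOTCH1 was at 125.3 CPM, JAG1 at 49.5 CPM, DLL1 at 3.41 CPM, HES1 at 20.8 CPM and HEY2 at 20.8 CPM, with log2 differences of -0.31 (SE 0.63), 0.06 (SE 0.65), -0.14 (SE 0.68), -0.11 (SE 0.61) and 0.50 (SE 1.21). HEYL had 6 reads (log2 difference 1.25, SE 1.27) and HEY1 had 2. Of the 8 members tested, 0 passed an adjusted p of 0.05 by edgeR, limma or DESeq2, against 1.22% of 11878 genes by edgeR (1.21% higher and 0.00842% lower), and 1 (NOTCH2) had an unadjusted p under 0.05, against 7.68%. The single library was assumed to vary as the clones do, and SEs of 0.61 to 1.27 in the members other than NOTCH2 do not show that the populations were alike.

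**Figure D5:**
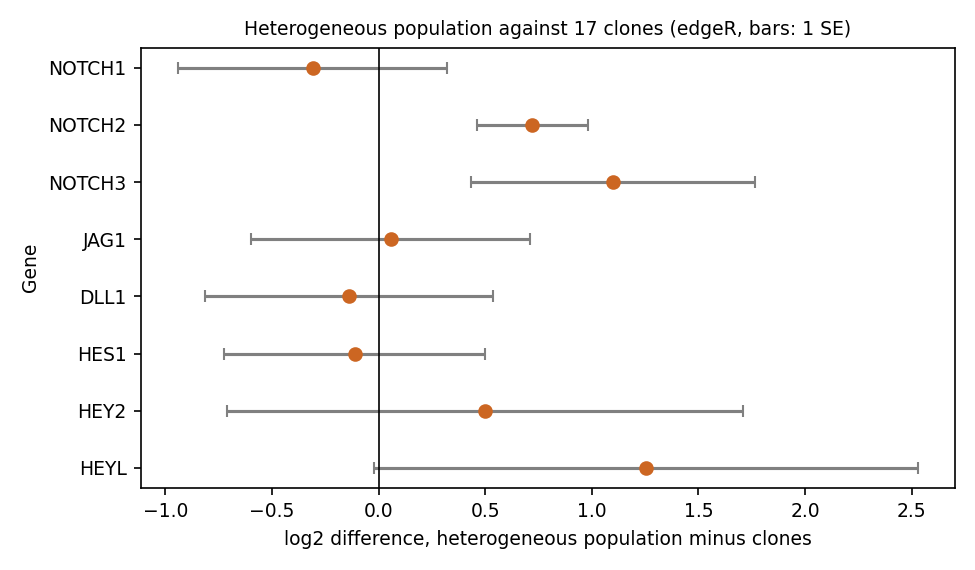
Difference of the heterogeneous population from the 17 clones in log2 units by gene (points, edgeR estimates, bars of 1 SE). NOTCH2 (0.72, SE 0.26) has the shortest bar and the lowest p, and no member passed an adjusted p of 0.05.

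Of the other pathway genes tested, DTX4, a Deltex-family ubiquitin ligase, differed most in the heterogeneous population. It had 32 reads there against 0 to 10 in the clones (log2 difference 3.21, SE 0.77). DTX4 failed the filter on low counts in the clones alone and entered the test through its level in this 1 library. A test of that same level is therefore no support for a difference. The edgeR call on DTX4 was also lost with limma, with DESeq2 and without any 1 of 12 clones. In the same library all 15 macrophage genes lay above every clone, C1QB by 1 read. Only CD68 (log2 difference 4.43, SE 0.30) and LAPTM5 (2.99, SE 0.83) passed the count filter in the clones as well. CD68 was at 40.6 CPM against 1.02 to 3.16 CPM in the clones, and LAPTM5 at 51.0 CPM against 1.07 to 28.8 CPM. The others failed the filter there, and any test of them could rest on their level in this 1 library. No call is given for any of the 15, CD68 and LAPTM5 included. The part of such cells in the NOTCH2, NOTCH3 or DTX4 values was not tested. The mural sum of this library was 4141 CPM, within the range of the clones.

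The genes most like each member over the 17 clones were listed by Pearson r of log2 levels, as a description. The pattern of JAG1 was most like those of VCL (r = 0.915), PDLIM2 (0.911) and TLN1 (0.894), of which VCL and TLN1 encode vinculin and talin, proteins that tie integrins to actin. HES1 was most like ACSF3 (0.908), ACTB (0.904) and DLST (0.903), and HEY2 was most like ADAMTS9 (0.923), NXN (0.923) and TMEM150C (0.913). For the receptors these were RAB11FIP1 (0.934), RNF19B (0.932) and PVRL1 (0.923) for NOTCH1, and BCAS3 (0.917), TCF7L2 (0.864) and CACNB3 (0.852) for NOTCH2. The low-count members had lower maxima, with GDF15 (0.801), PLAC9 (0.785) and PRPF40B (0.764) for NOTCH3, and MVB12A (0.860), ZDHHC16 (0.784) and SYTL4 (0.770) for DLL1. All points of these correlations share the 17 libraries and their scaling.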

How the data were processed

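The authors sequenced poly(A) RNA (single-end), aligned it to bosTau7 with STAR 2.3.0e (version per the submitters' processing notes) and counted reads over RefSeq gene models with HTSeq. The values deposited are raw counts, and no unit other than whole reads was used. The tally lines that name no gene (reads outside genes, 18.8% to 26.8% of each file, and ambiguous reads, 0.164% to 0.192%) stayed out.

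TMM factors came from all 18 libraries. Genes were filtered with filterByExpr (11878 genes with the heterogeneous population, 10351 in the clones, the slope gene left out of its own fit) and tested with edgeR 4.0.16 (glmQLFit, glmQLFTest) in R 4.3.3, with Benjamini-Hochberg adjustment over all genes. The slope gene entered as centred log2(CPM + 0.25). Correlations had two-sided permutation p-values (100000 resamples; Python 3.11.15, numpy 2.4.6). limma 3.58.1 and DESeq2 1.42.0 were alternatives, as were normalization, filter, pseudocount and left-out clones. All fits were tested on simulated data.

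The members, lists and tests were chosen with earlier results of these data known. Genes named beyond the members are list genes past the threshold, the 3 nearest genes by r, and marker genes. RGS5, LMOD1, CSPG4, MYH11, HES2, HES4, HES5, BHLHE40, DLL4 and the genes at 0 reads were named after their values were seen. Gene coordinates and sequences were not used here.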

Additional observations from a re-analysis of the deposited data

How the results depend on the processing

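The slope of HES1 on NOTCH1 stayed past the threshold under every alternative run, whereas that of HEY2 on JAG1 was lost with clones C and O summed as 1 (a setting added after seeing the data), which left 0 members and 146 genes called on JAG1 and 924 on NOTCH2. With no filter, 2 members were called on NOTCH1 (HES1 and HEY1) and 2 genes on NOTCH3. DESeq2 called 89 genes in the heterogeneous population against 145. With each clone left out in turn, calls on JAG1 ran from 58 genes (without P) to 444 (without M), with 184, 157, 118, 143 and 97 without B, C, F, O and Q, and from 0 to 1 member. Calls on NOTCH1 ran from 1615 (without G) to 2974, on NOTCH2 from 651 (without G; 945 without L, 811 without O) to 2068 genes and from 0 to 1 member (NOTCH1, without I, N or Q), and on DLL1 from 0 to 586 genes (without L). Pairs with a p under 0.05 numbered 2 to 5 (5 without H, I or K). In the heterogeneous population limma turned the small differences of DLL1 to 0.0037 and of HES1 to 0.017, and JAG1 ran from -0.0044 (without Q) to 0.16 log2 units. The SD of NOTCH2 was 0.20 with CPM by library total, and a pseudocount of 1 lowered those of NOTCH3 to 0.56 and DLL1 to 0.53. The cause of these changes was not tested. A larger pseudocount gives a smaller weight to low counts. Depth limits NOTCH3, DLL1, HEY1 and HEYL. No paired analysis was possible because the labels give no replicate numbers and the heterogeneous population has 1 library.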
